A study of Mus musculus with 4 samples.

Results

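The genes described here are 9 mouse genes of the T helper 1 (Th1) and interferon-gamma programme: the transcription factor genes Tbx21 (which encodes T-bet), Eomes, Runx3 and Hlx, the cytokine gene Ifng, the interleukin-12 receptor genes Il12rb1 and Il12rb2, and the interferon-gamma receptor genes Ifngr1 and Ifngr2. They were chosen by name, and every probe set that the platform annotation gives to them was read, 12 of the 45101 on the array. A single probe set stands for 6 of the genes, and Eomes, Runx3 and Ifngr2 have 2 each. The RNA came from regulatory T cells (Treg cells, CD4+Foxp3+ T cells that restrain other immune cells) of the spleen of C57BL/6 mice, on 2 arrays labelled Foxo1/3-deficient and 2 labelled wild-type, numbered as pair 1 and pair 2 with an array of each genotype in both. For the deficient samples the titles name Foxo1 and Foxo3, and the genotype entry lists only Foxo1. The sources used here do not state the allele, the Cre line, the age of the mice or whether animals were pooled.

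T-bet is the T-box factor that directs CD4 T cells to the Th1 fate and switches on Ifng. Its relative Eomes does the same chiefly in cytotoxic and natural killer cells, and Runx3 and Hlx act with T-bet at the Ifng locus and other Th1 genes. Interleukin-12 signals through a receptor of IL-12Rβ1 and IL-12Rβ2, with JAK2, TYK2 and STAT4, to raise interferon-gamma; interferon-gamma in turn binds a receptor of IFNGR1 and IFNGR2 and acts through JAK1 and JAK2. A part of Treg cells takes up T-bet and the chemokine receptor CXCR3 when it meets Th1 inflammation.

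The check of the genes named in the labels bears on every direction below. Foxo1 read higher where the label says it is missing: labelled-deficient signals were between 2.92 and 5.62 times those of their wild-type partners on the 3 probe sets of that gene that passed the filter on dim signals. The sources used here do not place those probe sets relative to the deleted part. Foxo3, which the titles also name, ran the way of the labels without being called: its brighter probe set read 1424 and 1308 on the labelled-deficient arrays, against 1876 and 2635 on the wild-type arrays (limma, adjusted p = 0.241), and a dimmer one that passed read 554 and 521 on the labelled-deficient arrays, against 861 and 1001 on the wild-type arrays. Each direction is therefore that of the arrays as labelled, and "labelled-deficient" is written throughout. The Treg marker Foxp3 read 6504 and 6056 on the labelled-deficient arrays, against 6540 and 6285 on the wild-type arrays.

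The sequences upstream of the transcription start are shown for Tbx21, Eomes and Ifng, since the master factors and the cytokine they control are the genes that the results turn on. RefSeq promoter windows (GRCm38.p6) were matched by symbol for 8 of the 9 genes, with 2 windows for Runx3; Il12rb1 had no entry. Printed are the 250 bases before the start, 5′ to 3′ on the gene's own strand, for Tbx21 at chr11:97115332-97115581 (minus strand), Eomes at chr9:118477939-118478188 (plus strand) and Ifng at chr10:118440796-118441045 (plus strand). Capitals mark matches, on either strand, to 5 short motifs: GTAAACA for FoxO factors, GGTGTGA for T-box factors, TGTGGT for Runx factors, TTCNNNGAA for STAT factors and TATAAA for the TATA box.
Tbx21: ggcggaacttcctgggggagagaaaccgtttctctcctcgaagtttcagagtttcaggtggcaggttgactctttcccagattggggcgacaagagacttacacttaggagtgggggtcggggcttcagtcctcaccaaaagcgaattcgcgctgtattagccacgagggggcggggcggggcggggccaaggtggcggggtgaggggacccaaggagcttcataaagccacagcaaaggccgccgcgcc
Eomes: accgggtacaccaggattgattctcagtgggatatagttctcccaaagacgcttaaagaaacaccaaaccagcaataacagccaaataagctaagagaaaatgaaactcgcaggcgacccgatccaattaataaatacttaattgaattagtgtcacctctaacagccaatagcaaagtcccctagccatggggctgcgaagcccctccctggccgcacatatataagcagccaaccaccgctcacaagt
Ifng: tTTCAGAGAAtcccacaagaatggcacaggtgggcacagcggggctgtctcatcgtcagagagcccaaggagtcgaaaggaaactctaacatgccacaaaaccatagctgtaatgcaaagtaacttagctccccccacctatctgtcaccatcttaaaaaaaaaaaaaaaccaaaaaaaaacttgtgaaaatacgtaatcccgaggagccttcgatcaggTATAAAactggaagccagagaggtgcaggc
The Ifng window held a STAT match beginning 249 bases before the start and a TATA match beginning 30 bases before it, and these 2 do not overlap. The Tbx21 and Eomes windows held no match to any of the 5. Among all 32851 windows of that length, 3.17% held the FoxO letters, 3.33% the T-box letters, 14.0% the Runx letters, 7.02% the STAT letters and 12.4% the TATA letters. Of the other windows of these genes, Runx3 had a pair of Runx matches in 1 window and Il12rb2 had a STAT match. A match is a description of the letters in this window alone.

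On the labelled-deficient arrays 4 of the 9 genes were lower: Il12rb1, Tbx21, Ifng and Eomes, by between 3.53-fold and 6.72-fold on the log2(signal + 17) scale. None was higher by limma (0 at an unadjusted p under 0.05 as well, reading each gene from its brightest probe set). Of the 9 genes, 7 passed the filter and were tested, and every one of their 9 tested probe sets read above the filter signal of about 40 on all 4 arrays, with 47.3 as the lowest value. Over all 12115 genes tested, 1.35% were called lower and 1.21% higher at the same threshold of 0.05 on the adjusted p. The median log2 difference of the 7 genes was -1.82, beside -0.003 for all genes. In these bulk samples, fewer cells that express a gene and less RNA per cell cannot be told apart.

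Among the transcription factors, Tbx21 gave signals of 449 in pair 1 and 491 in pair 2 on the labelled-deficient arrays, against 2399 and 1961 on the wild-type arrays. The groups lay far apart, and the 2 labelled-deficient arrays were nearly level. The log2 difference was -2.17 ± 0.24 (SE, limma, 2 arrays a group, adjusted p = 0.00629), and the wild-type signal was 5.34 times the labelled-deficient one within pair 1 and 4.0 times within pair 2.

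Eomes read 356 and 310 on the labelled-deficient arrays, against 1036 and 1425 on the wild-type arrays, on the brighter of its probe sets. The dimmer one read 98.0 and 56.6 on the labelled-deficient arrays, against 319 and 344 on the wild-type arrays. On both probe sets the groups were apart and the gap was wider in pair 2, where the wild-type signal was 4.60 and 6.08 times the other, than in pair 1, where it was 2.91 and 3.26 times; whether the pairs differ in this could not be tested, since no residual degrees of freedom remain. The gene's log2 difference was -1.82 ± 0.27 (SE, limma, adjusted p = 0.0200). Leaving out labelled-deficient replicate 2 ended this call (adjusted p = 0.0544), as did a fit of unfiltered probe sets (0.0540) and one with no intensity trend in the variance model (0.0520); it lay between 0.00202 and 0.0544 with any 1 array left out.

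Runx3 read 408 and 763 on the labelled-deficient arrays, against 1021 and 1736 on the wild-type arrays. The groups did not overlap, but both genotypes read higher in pair 2. The log2 difference of -1.23 ± 0.37 (SE) missed the threshold by limma (adjusted p = 0.170), although it was nearly the same within pair 1 (-1.29) and pair 2 (-1.17). With the pair as a block the difference was called (adjusted p = 0.000162), and it also passed without wild-type replicate 1 (-1.61, adjusted p = 0.0220). The other Runx3 probe set was dim, between 10.8 and 12.3 on the 4 arrays, and was not tested. Runx1, which belongs to the same family and was singled out after its values were seen, read 998 and 1554 on the labelled-deficient arrays, against 841 and 1725 on the wild-type arrays (log2 0.05 ± 0.37, adjusted p = 0.989).

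The homeobox factor gene Hlx was too dim to test. It read 31.4 and 38.2 on the labelled-deficient arrays, against 62.7 and 8.32 on the wild-type arrays, so the wild-type values spanned the labelled-deficient ones.

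The cytokine gene Ifng read 254 and 298 on the labelled-deficient arrays, against 1382 and 2738 on the wild-type arrays. The labelled-deficient arrays were close to each other, while the wild-type array of pair 2 was 1.98 times that of pair 1. Its log2 difference was the largest of the 7 tested genes on this scale, at -2.75 ± 0.35 (SE, limma, adjusted p = 0.0107), and within the pairs it was -2.37 and -3.13. A wild-type array thus carried 5.44 times the signal of its labelled-deficient partner in pair 1 and 9.19 times in pair 2. Ifng was also called lower with any 1 array left out.

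**Figure D1:**
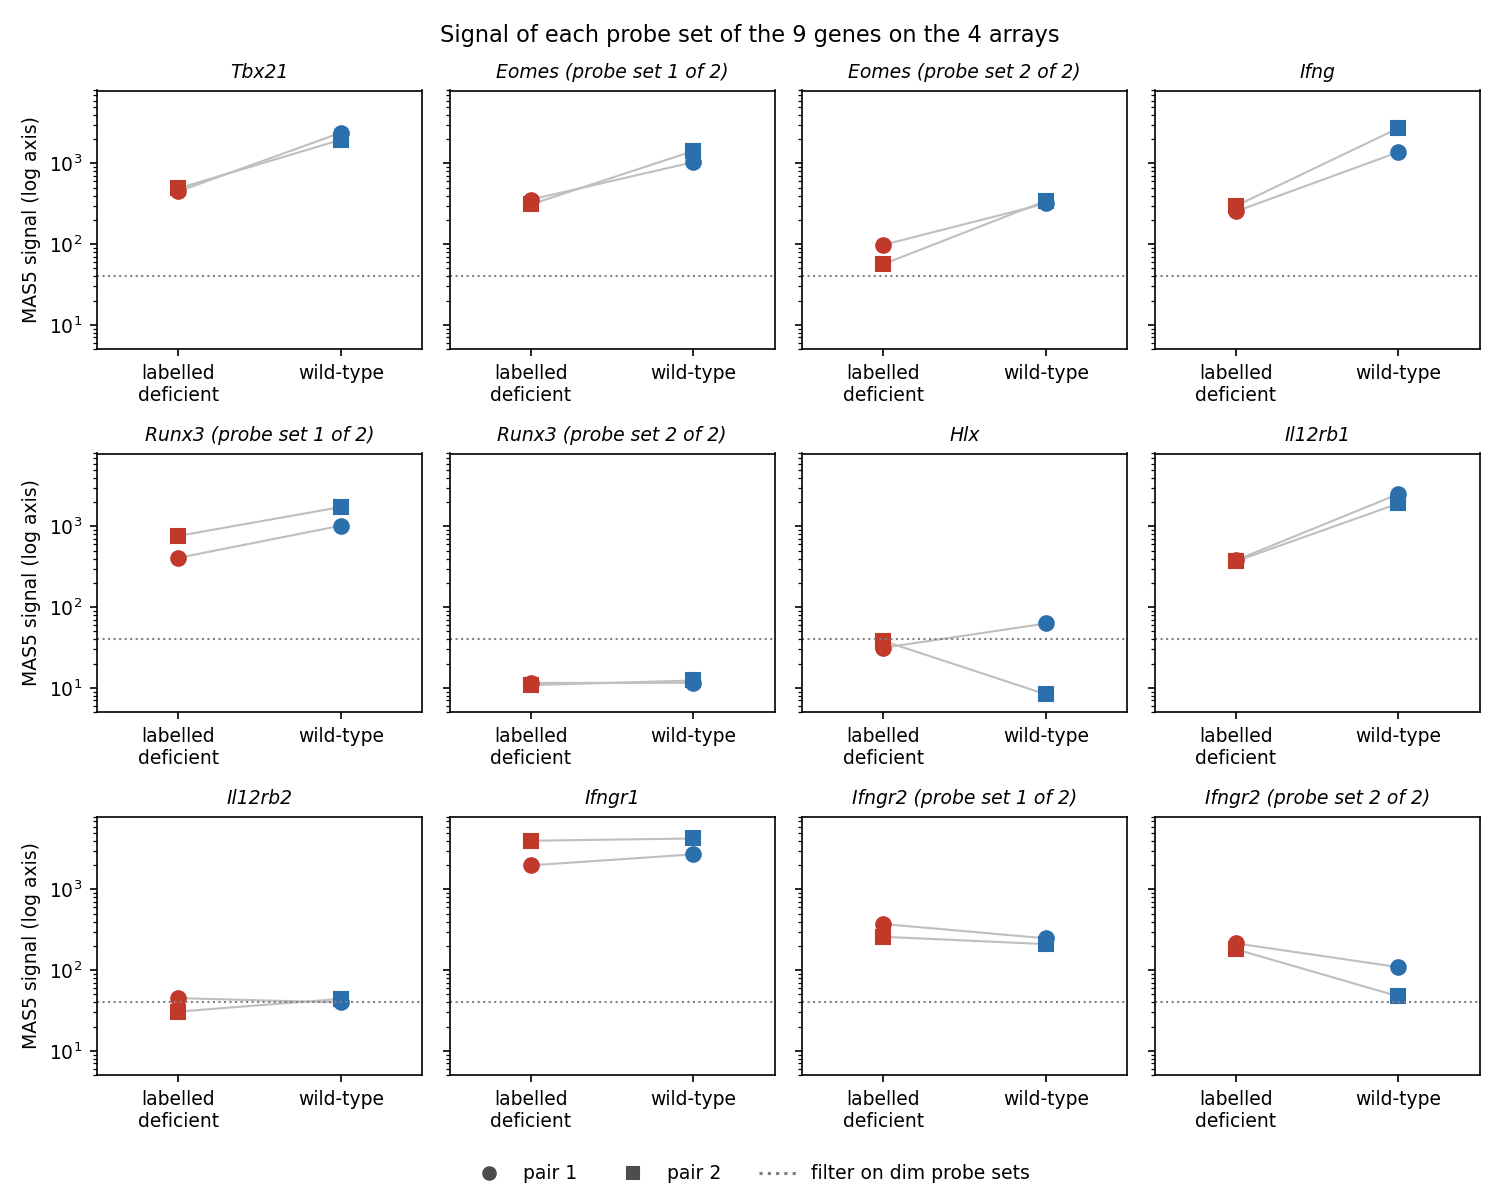
Deposited MAS5 signal on a log axis for each of the 12 probe sets, with labelled-deficient arrays at the left and wild-type arrays at the right of each panel, circles for pair 1, squares for pair 2, grey lines joining the arrays of a pair and a dotted line at the filter on dim probe sets. Tbx21, Eomes, Ifng and Il12rb1 lie well below their wild-type partners in both pairs, while Hlx, Il12rb2 and the second Runx3 probe set sit at or near the dotted line or below it.

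Of the interleukin-12 receptor genes, Il12rb1, whose product is shared with the interleukin-23 receptor, had the smallest adjusted p of the 7 genes. It read 382 and 370 on the labelled-deficient arrays, against 2519 and 1923 on the wild-type arrays. The labelled-deficient values were almost equal and lay far under the lower wild-type value. The log2 difference was -2.50 ± 0.25 (SE, limma, adjusted p = 0.00543), with wild-type signals 6.60 times the labelled-deficient ones in pair 1 and 5.19 times in pair 2.

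Il12rb2, which encodes the chain that binds STAT4, did not pass the filter. It read 45.0 and 30.6 on the labelled-deficient arrays, against 39.7 and 44.1 on the wild-type arrays, and these values overlap close to the filter signal. No difference in Il12rb2 was therefore measurable on its only probe set, whichever way it might run.

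The interferon-gamma receptor genes were not called in either direction by limma. Ifngr1, the ligand-binding chain, read 1988 and 4008 on the labelled-deficient arrays, against 2719 and 4274 on the wild-type arrays. The groups overlapped, because pair 2 was higher than pair 1 in both genotypes, by 2.02 times among labelled-deficient and 1.57 times among wild-type arrays. The log2 difference in the fit without the pair was -0.27 ± 0.36 (SE, limma, adjusted p = 0.876). Its 95% interval ran from -1.10 to 0.56, so a halving or a rise of up to 1.48-fold lies inside it. With the pair as a block the SE was smaller, at 0.16, and the difference was still not called (limma, adjusted p = 0.357).

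Ifngr2, the signalling chain, read 373 and 259 on the labelled-deficient arrays, against 248 and 210 on the wild-type arrays, on its brighter probe set. The log2 difference there was 0.42 ± 0.31 (SE, adjusted p = 0.706), with a 95% interval from -0.30 to 1.14. Its dimmer probe set read 214 and 181 on the labelled-deficient arrays, against 109 and 47.3 on the wild-type arrays. In the fit over probe sets this made a log2 difference of 1.25 ± 0.41 (limma, unadjusted p = 0.0154, adjusted p = 0.269). Read from its first-listed probe set, the gene had an unadjusted p of 0.0156 (limma, adjusted p = 0.221). With the mean of its probe sets the unadjusted p was 0.0271 (limma, adjusted p = 0.265). On both probe sets the labelled-deficient arrays lay above the wild-type ones, neither difference was called, and the sizes differ between the probe sets.

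**Figure D2:**
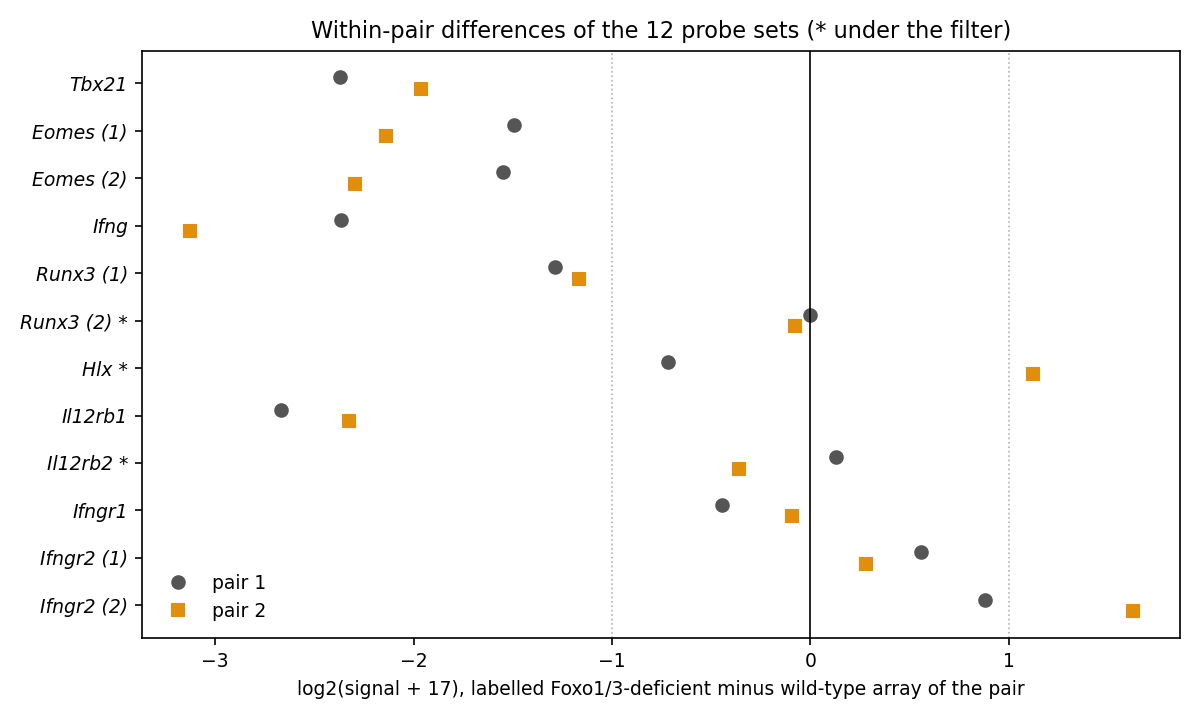
Difference of log2(signal + 17) between the labelled-deficient and the wild-type array of the same pair, for each probe set, with circles for pair 1, squares for pair 2, dotted lines at a 2-fold difference and an asterisk for probe sets under the filter. Both pairs lie beyond 2-fold on the lower side for Tbx21, both Eomes probe sets, Ifng, Il12rb1 and the brighter Runx3 probe set, whereas Hlx and Il12rb2 have their pairs on opposite sides of 0.

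Within the pairs, 5 of the 7 tested genes (Tbx21, Eomes, Ifng, Runx3 and Il12rb1) were at least 2-fold lower in both, which was true of 2.32% of all genes. The same 5 had both labelled-deficient arrays below both wild-type arrays, and Ifngr2 had both above; over all genes 21.1% were of the first kind and 20.0% of the second. With the pair as a block, 5 of the 7 genes were called lower and 0 higher (limma), against 6.36% and 5.23% of all genes. In the fit over 27022 probe sets, 5 of the 9 tested probe sets were called lower (Tbx21, both of Eomes, Ifng and Il12rb1) and 0 higher, against 0.529% and 0.633% of all probe sets; with the block 6 were lower and 0 higher, against 2.61% and 2.52%. In the unblocked fit over probe sets, Ifng had an adjusted p of 0.0702 when no filter was set and 0.0563 with no intensity trend, and the dimmer Eomes probe set had an adjusted p of 0.0497, which was 0.159 without labelled-deficient replicate 2.

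**Figure D3:**
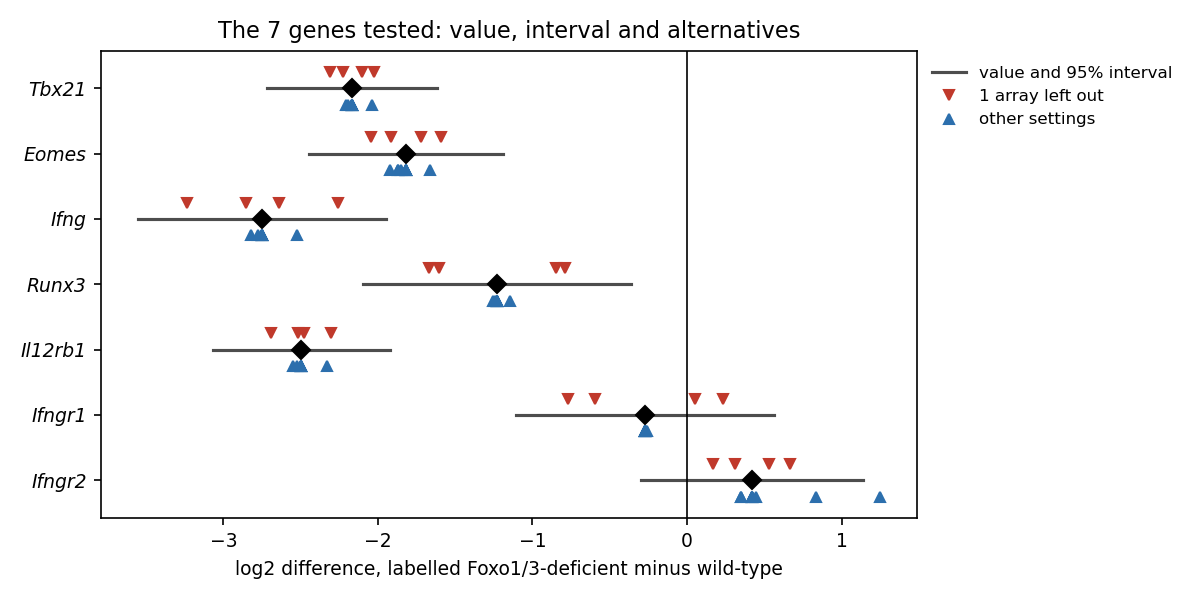
Log2 difference (labelled-deficient minus wild-type) of the 7 tested genes, with diamonds for the reported value, horizontal lines for its 95% interval, triangles pointing down for fits with 1 array left out and triangles pointing up for the other settings. Ifng, Il12rb1, Tbx21, Eomes and Runx3 stay below 0 under each setting drawn, and Ifngr1 crosses 0 when an array is left out.

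The pair itself was also tested, as pair 2 minus pair 1 with genotype as a covariate. Ifngr1 and Runx3 were higher in pair 2, by log2 0.83 ± 0.16 and 0.82 ± 0.19 (SE, limma, adjusted p = 0.00471 and 0.0132), and 6.78% of all genes differed between the pairs in either direction, 2.96% being higher in pair 2. Ifng stood at 0.60 ± 0.21, which missed the threshold (adjusted p = 0.109). Tbx21, Eomes, Il12rb1 and Ifngr2 lay between -0.36 and 0.13 with adjusted p values of 0.512 and above. In this fit 3 of the 7 genes had an unadjusted p under 0.05, against 21.1% of all genes, and without the intensity trend 0 of the 7 were called (limma). The labels say no more of these numbers than that they mark pairs.

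Genes whose 4 signals moved most like those of Tbx21 were named by the root mean square distance between log2(signal + 17) profiles centred on their means. The 5 nearest were Il18rap, Ctla2b, Slc2a8, Klrg1 and Il12rb1, at distances between 0.146 and 0.178. Nearest to Ifng were Gm30173, Ccl1, Jdp2, Cables1 and Arnt2, at distances between 0.110 and 0.205. Gm30173 read 8.30 and 11.0 on the labelled-deficient arrays, against 117 and 200 on the wild-type arrays, and Slc2a8 read 39.3 and 26.8 on the labelled-deficient arrays, against 219 and 176 on the wild-type arrays. Both were under the filter signal on the labelled-deficient arrays and passed through the wild-type ones, and the place of Gm30173, whose low values lie under the added 17, is set in part by that constant. Ccl1, a chemokine gene, read 68.0 and 63.2 on the labelled-deficient arrays, against 387 and 686 on the wild-type arrays, so that like Ifng it was highest on the wild-type array of pair 2. Il18rap, a chain of the interleukin-18 receptor, read 565 and 661 on the labelled-deficient arrays, against 2952 and 3121 on the wild-type arrays. With 4 arrays this likeness describes these arrays and is no test.

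Beyond the 9 genes, 7 lists of the pathway held 115 genes, of which 106 were found on the array by symbol and 93 were tested. By limma 17 (18.3%) were lower and 1 higher, against 1.35% and 1.21% of all genes. With the pair as a block 43 were lower and 2 higher, against 6.36% and 5.23% of all genes. The counts by list below stand beside these same shares. Among other regulators of Ifng, 3 of 14 tested were lower and 0 higher (0 at an unadjusted p under 0.05), with a median log2 difference of -0.56, and 8 were lower with the block. Bhlhe40, a factor that restrains interleukin-10 and favours interferon-gamma in T cells, read 524 and 503 on the labelled-deficient arrays, against 2065 and 2759 on the wild-type arrays (log2 -2.18 ± 0.24, adjusted p = 0.00701). Prdm1, which encodes Blimp-1, was lower by log2 -1.41, and Id2, an inhibitor of E proteins, by -1.40; for both, leaving out labelled-deficient replicate 1 ended the call (adjusted p = 0.144 and 0.0664), as did the fit without the filter (0.0644 and 0.112) and the one without the intensity trend (0.0788 and 0.125).

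Of 16 tested genes on the list of interleukin-12 and interleukin-18 signalling, 1 was lower and 1 higher. In sign, 12 lay below 0, and the median was -0.47. With the block 8 were lower and 1 higher. Il6st was the one called higher in both fits, and no other gene of the list was called higher in either. Il18rap was the one that fell (log2 -2.28 ± 0.22, adjusted p = 0.00539). Il6st, which encodes the gp130 chain shared by interleukin-6 family receptors, was higher, with 3654 and 3770 on the labelled-deficient arrays, against 1673 and 1179 on the wild-type arrays (1.39 ± 0.23, adjusted p = 0.0292, but 0.0882 and 0.0907 without labelled-deficient replicate 1 or 2, 0.0745 without the filter and 0.0903 without the intensity trend). The kinase and STAT genes of the receptor missed the threshold: Jak2 stood at -0.77 ± 0.20 (adjusted p = 0.114), Tyk2 at -0.57 ± 0.24 (0.356) and Stat4 at -0.58 ± 0.24 (0.357). With the block these 3 were called lower (adjusted p = 0.00306, 0.0423 and 0.0177).

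Downstream of the interferon-gamma receptor, 0 of 9 signalling genes were called by limma (2 lower and 1 higher at an unadjusted p under 0.05, and the same numbers with the block), and the median was -0.12. The lower count became 1 with a filter at the 60th percentile, with quantile normalization and with the mean of probe sets. Irf1, singled out after its values were seen, stood at -0.83 ± 0.17 (SE, limma, adjusted p = 0.0511, and 0.00139 with the block). Jak1, which serves many cytokine receptors, stood at 0.52 ± 0.19 (adjusted p = 0.269, but 0.0396 with the block), opposite in sign to Jak2. Receptor genes of the same class as Ifngr1 and Ifngr2, such as those for type I interferons and interleukin-10, held 0 of 6 called by limma, by the blocked fit or at an unadjusted p under 0.05, with a median of 0.16.

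Genes that interferon-gamma induces were lower in part. Of 29 tested 4 were lower and 0 higher (0 also at an unadjusted p under 0.05), with a median of -0.63, and 17 were lower with the block. The 4 were Iigp1 and Gbp6, which encode GTPases that act against intracellular pathogens, the transcription factor gene Irf8, and Icam1, an adhesion molecule gene, at log2 -1.34, -1.22, -1.29 and -1.09. Gbp6 read 3609 and 4268 on the labelled-deficient arrays, against 9207 and 9118 on the wild-type arrays. Without labelled-deficient replicate 1 all 4 missed the threshold, with adjusted p values between 0.0603 and 0.176; Iigp1 and Icam1 also missed it without labelled-deficient replicate 2 (0.0835 and 0.186) and Icam1 without wild-type replicate 1 (0.0742). Without the filter 0 of the list were called, the 4 having adjusted p values between 0.0567 and 0.0923, and without the intensity trend likewise 0, with values between 0.0903 and 0.116; reading Iigp1 from the probe set listed first also ended its call (0.0623).

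Th1 effector genes held 9 of the 17 lower calls of the 7 lists in the unblocked fit. Of 18 tested 9 were lower and 0 higher (0 also at an unadjusted p under 0.05), with a median of -1.39, and 13 were lower with the block. By size on the log2(signal + 17) scale they began with Gzmb, Ccl3, Havcr2, Nkg7, Ccl5 and Xcl1, whose log2 differences ran from -3.51 to -2.44. Ccl3 read 13.2 and 10.6 on the labelled-deficient arrays, against 268 and 281 on the wild-type arrays, so it passed the filter only through the wild-type arrays. Its size and place follow the constant added: the difference was -4.54 with none and -1.99 with the median signal, while that of Havcr2 was -3.43 and -2.54 and that of Gzmb -3.52 and -3.47. Xcl1, the chemokine that attracts cross-presenting dendritic cells, read 123 and 90.4 on the labelled-deficient arrays, against 565 and 741 on the wild-type arrays. Of 9 Th2 genes tested 1 was lower, Maf (-0.85 ± 0.17, adjusted p = 0.0441), and 0 were higher (0 also at an unadjusted p under 0.05 and with the block), with a median of -0.17; Maf missed the threshold without any 1 of the 4 arrays, with adjusted p values between 0.0505 and 0.170, and also without the filter (0.117), without the intensity trend (0.179), with the first-listed probe set (0.0530) and with the mean of its probe sets (0.0515).

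**Figure D4:**
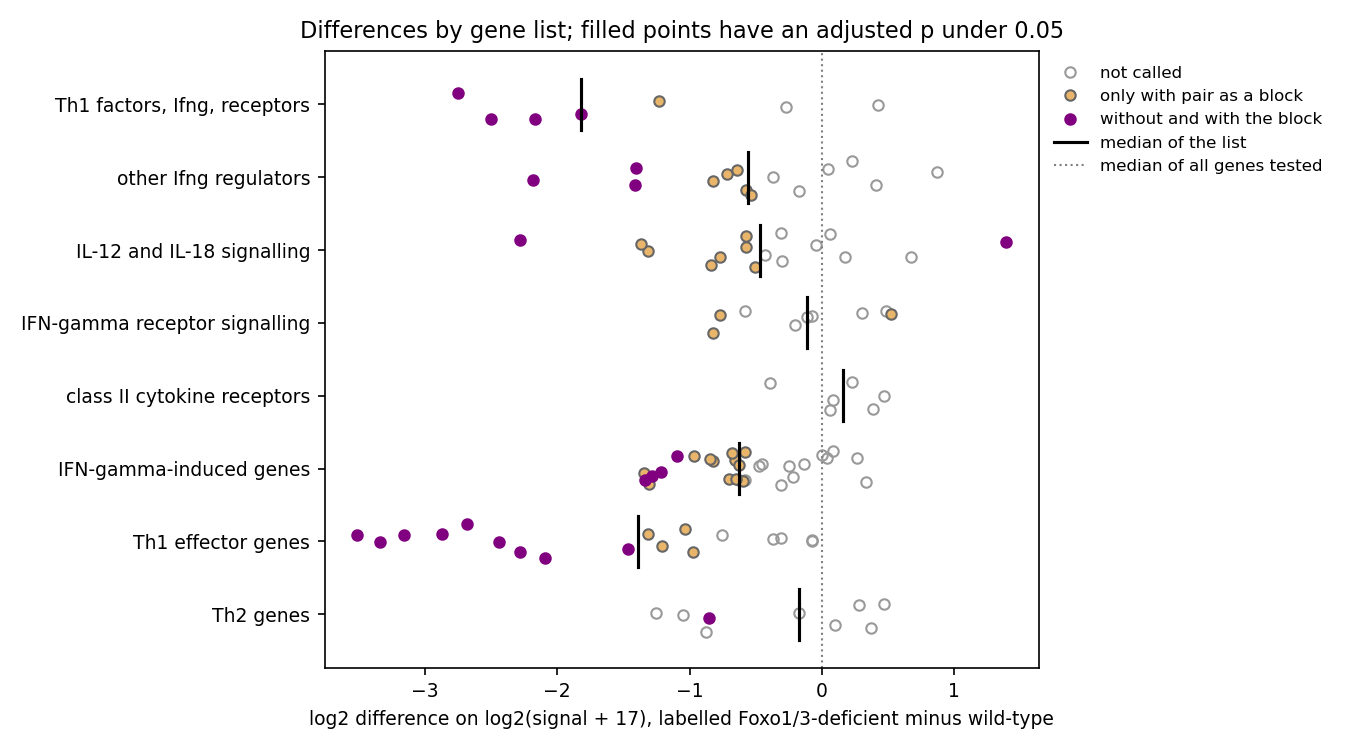
Log2 difference (labelled-deficient minus wild-type) of each tested gene by list, with purple points called both without and with the pair as a block, orange points called with the block alone, open points called in neither, a bar at each list's median and a dotted line at the median of all genes. Points of the Th1 effector list reach -3.51, the class II receptors stay between -0.40 and 0.47, and vertical scatter within a list has no meaning.

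Cells other than Treg cells can express Tbx21, Eomes and Ifng, so their markers were read on the same arrays, and their part in the differences was not tested. The CD8 genes Cd8a and Cd8b1 summed to 423 and 663 on the labelled-deficient arrays, against 518 and 367 on the wild-type arrays. The natural killer cell markers, 6 on the array, summed to 706 and 825 on the labelled-deficient arrays, against 937 and 815 on the wild-type arrays, and the defining gene Ncr1 lay between 13.9 and 37.2 on all 4. Both sums overlapped between the genotypes. Most of the natural killer sum was Klrd1, at 544 and 701 on the labelled-deficient arrays, against 659 and 642 on the wild-type arrays. Klrk1 read 78.6 and 64.8 on the labelled-deficient arrays, against 133 and 95.5 on the wild-type arrays. Klre1 and Klra7 were also lower in both pairs, Klra8 was higher in both, and Klrd1 and Ncr1 changed sign between them. Klre1, Klra7, Klra8 and Ncr1 were under the filter. Sums were also taken over 6 T cell, 5 B cell, 7 myeloid and 3 NKT and gamma-delta T cell markers. These were higher on both labelled-deficient than on both wild-type arrays. For 3 of these sums, the separation of the groups rested on a single bright probe set. Without Cd28, which read 7360 and 10829 on the labelled-deficient arrays, against 4322 and 4449 on the wild-type arrays, the T cell sums overlapped (36103 and 33505 on the labelled-deficient arrays, against 37603 and 34977 on the wild-type arrays). The B cell sums overlapped without Ighm and the myeloid sums without Csf1r, while those of NKT and gamma-delta T cell markers stayed apart without Zbtb16. Within both pairs, however, the labelled-deficient array stayed the higher one for B cell and myeloid markers. The B cell sums without Ighm were 2602.5 and 1675 on the labelled-deficient arrays, against 2236 and 755 on the wild-type arrays. The myeloid sums without Csf1r were 3539 and 2557 on the labelled-deficient arrays, against 2848 and 1959 on the wild-type arrays. These genes were left out after their values were seen. With Ighm included, B cell markers summed to 13895 and 18599 on the labelled-deficient arrays, against 13856 and 10595 on the wild-type arrays. The 5 neutrophil markers summed to 354 and 161 on the labelled-deficient arrays, against 942 and 294 on the wild-type arrays, and overlapped, as did the sums of the 6 Treg markers, at 38160 and 41128 on the labelled-deficient arrays, against 36511 and 43164 on the wild-type arrays. By limma 0 genes of these 8 marker lists were called. At an unadjusted p under 0.05, 4 of the 32 tested were higher and 0 lower. Of all 12115 genes, 718 were higher and 854 lower at that p (limma), 13.0% in either direction. With the block 5 marker genes were called higher and 1 lower, against 5.23% and 6.36% of all genes.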

How the data were processed

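The authors deposited linear-scale intensities, 1 per probe set and array, which MAS5 produced per the submitters' processing notes. No version or settings stand there, and detection calls were not used here. All 4 arrays had a trimmed mean of 500.003, and their log2 signals correlated between 0.960 and 0.972 across probe sets. The number of arrays limits the precision.

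Signals were tested as log2(signal + 17), 17 being the 25th percentile, rounded, so folds of dim genes are understated. Probe sets under the 40th percentile of the mean log2 signal were left out, and the brightest probe set stood for a gene. Symbols came from the platform annotation (1 symbol for 34945 probe sets, several for 932, none for 9160) and were compared with RefSeq. The genotype test was that of limma 3.58.1 under R 4.3.3 (lmFit and eBayes with an intensity trend, two-sided, Benjamini-Hochberg), with 2 residual degrees of freedom plus 5.69 from the shared variance; with 2 arrays a group the smallest exact p is 0.333. Nothing says that arrays came from separate animals, so a p measures the spread between arrays. The titles call the numbers pairs; deviations of same-numbered arrays from their group means correlated across genes (r = 0.367), and a fit blocked on the pair was run as an alternative. The fits were also run on simulated data, and the outcome is not reported here. The genes, lists and tests were chosen with earlier results of these data known, and no set test was run. Named were the 9 genes, up to 6 called genes a list by size, the JAK and STAT genes of the receptors, and the 5 genes nearest to Tbx21 and to Ifng. Runx1 and Irf1 were added after their values were seen. Protein sequences were not used here.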

Additional observations from a re-analysis of the deposited data

Results flagged for a closer look

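Hlx and Il12rb2 had log2(signal + 17) differences of opposite sign in the 2 pairs. Hlx stood at -0.72 in pair 1 and 1.12 in pair 2, and Il12rb2 at 0.13 in pair 1 and -0.36 in pair 2. Both probe sets were under the filter on dim signals, and the difference between the pairs was not tested. Over all tested genes 37.4% had opposite signs in the pairs.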

How the results depend on the processing

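Il12rb1, Tbx21, Ifng and Eomes gave 4 genes called lower out of 7, and that count was 3 without the filter and without the intensity trend, 5 with the pair as a block and between 3 and 5 with 1 array left out; 0 were called higher under every setting run. Quantile normalization, other pseudocounts, a filter at the 60th percentile and other rules for the probe set of a gene left it at 4. The pair as a block raised all genes called lower to 770 and higher to 634, and pathway genes to 43 lower and 2 higher. Without the filter these became 44, 45, 9 and 0, and without the intensity trend 54, 57, 9 and 0. With the block and no filter together, a setting chosen after seeing the data, they were 583, 458, 36 and 1. With 1 array left out they ran from 82 to 266 genes lower, 67 to 278 higher, 10 to 19 pathway genes lower and 0 to 1 higher; fewer samples enter those fits. The probe sets called lower were 2 both without the filter and without the trend, and 3 to 5 with 1 array left out. The 2 of the 9 genes that differed between pairs became 0 without the trend; over all genes, counts run after seeing the data, 821 differed, 346 without the filter, 393 with the first-listed probe set and 3 without the trend. Ifngr1 ran from -0.77 to 0.23 with 1 array left out, turning sign without labelled-deficient replicate 1 (0.23) and without wild-type replicate 2 (0.05). The blocked fit called Runx3 besides the 4. The cause of these changes was not tested. The dimness of Hlx, Il12rb2 and the second Runx3 probe set limits what can be said of them.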
